A study of Homo sapiens with 15 samples.

Results

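Exposure of Caco-2 cells to polysorbate 80 (PS80) was compared with no exposure over the 10 of 15 libraries whose titles name PS80 or the unexposed control, 5 in each group. The titles alone chose these libraries, and no measured value entered the choice. Caco-2 is a line from a human colorectal adenocarcinoma that forms monolayers with features of intestinal enterocytes. The 5 PS80 libraries came from cells given PS80 at 0.05% for 24 h, the 5 control libraries from cells with no treatment, and the other 5 from cells given polysorbate 20 (PS20) at the same dose and time. All were made from polyadenylated RNA of this 1 line. The labels name no vehicle and do not say whether numbered replicates were separate cultures, so every p-value measures the spread between these libraries, which may be technical. Per the file headers, reads of PS80 replicates 1, 3, 4 and 5 were counted with featureCounts 2.0.3 and all others with 2.0.0, so in those 4 libraries exposure and program version cannot be told apart.

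PS80 is a nonionic surfactant used as a food emulsifier, a polyoxyethylene sorbitan ester of oleate, whereas PS20 carries laurate. Enterocytes take up fatty acids, store them as triglyceride in droplets coated by perilipins, oxidise them in mitochondria after transfer to carnitine, or export them in lipoproteins. Fatty acids activate the nuclear receptors called PPARs, and the membrane-bound factors SREBP-1 and SREBP-2 drive fatty acid and cholesterol synthesis when lipids are scarce. The same cells take glucose through transporters of the SLC2A family, which alpha-arrestins such as TXNIP remove from the surface. Growth factor signals through EGFR and ERK raise immediate early factors and their own feedback inhibitors.

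Library totals were 4183096 to 13616301 counts in control and 6769409 to 42271053 with PS80, where replicate 2 was the deepest. The first principal component of the 10 libraries (37.7% of variance) placed control between -24.0 and -16.5 and PS80 between 12.3 and 31.0, and the second (17.4%) placed replicates 1 and 2 of both groups above 5 and all of replicates 3 to 5 below -2. Levels in CPM are counts scaled by library total and, for single genes but not for the summed levels here, by TMM factor. PS80 replicate 2 stood apart in RNAs that lack poly(A). The summed level of 34 histone genes was 1235 CPM there, at most 499.9 CPM in the other PS80 libraries and 578 to 641 CPM in control. Of 8 enterocyte markers 6 were measured, CDX2 passed as higher, and the summed level of all 8 was 4250 to 4501 CPM with PS80 and 4286 to 4611 CPM in control. KRT20 was at 0 in all 10 libraries and LGALS4 near 0, and both have a likely copy on a scaffold of the annotation, so neither was read as a level. MUC2 and FCGBP of the goblet markers and CHGA of the enteroendocrine markers have such a copy too. The sums for those cells may therefore be too low. Summed marker levels with PS80 and in control were 23.6 to 41.6 and 29.9 to 59.9 CPM for goblet cells, 5.02 to 9.17 and 4.97 to 9.32 CPM for enteroendocrine and Paneth cells, 131 to 179 and 148 to 169 CPM for fibroblasts and endothelium, 17.98 to 22.3 and 12.6 to 20.3 CPM for blood cells, and at most 1.19 and 2.15 CPM for keratinocytes. ATOH1, PTPRC and IVL were at 0 in all 10. In bulk RNA, fewer cells that express a gene and less RNA per cell cannot be told apart.

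Of 12769 genes tested, 33.2% passed an adjusted p of 0.05, 17.2% as higher and 16% as lower with PS80. These shares are the background for each list count of PS80 against control below. Adjusted p here and below is from the quasi-likelihood test of edgeR, corrected over all genes by Benjamini-Hochberg, and levels are CPM. Most changes were small, since 76.6% of the genes that passed changed by less than 1.5-fold, and 1.52% of all genes rose and 0.72% fell by more than 2-fold. In 10.3% of genes all 5 PS80 values lay above all 5 control values, and in 9.3% below. The median log2 fold change over all genes was 0.0017. A list whose median lies near 0.00 thus had no common direction, although its members may have moved both ways. With PS80 replicate 2 left out, 3852 genes passed, and 3566 of the 4243 passed in the same direction.

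**Figure D1:**
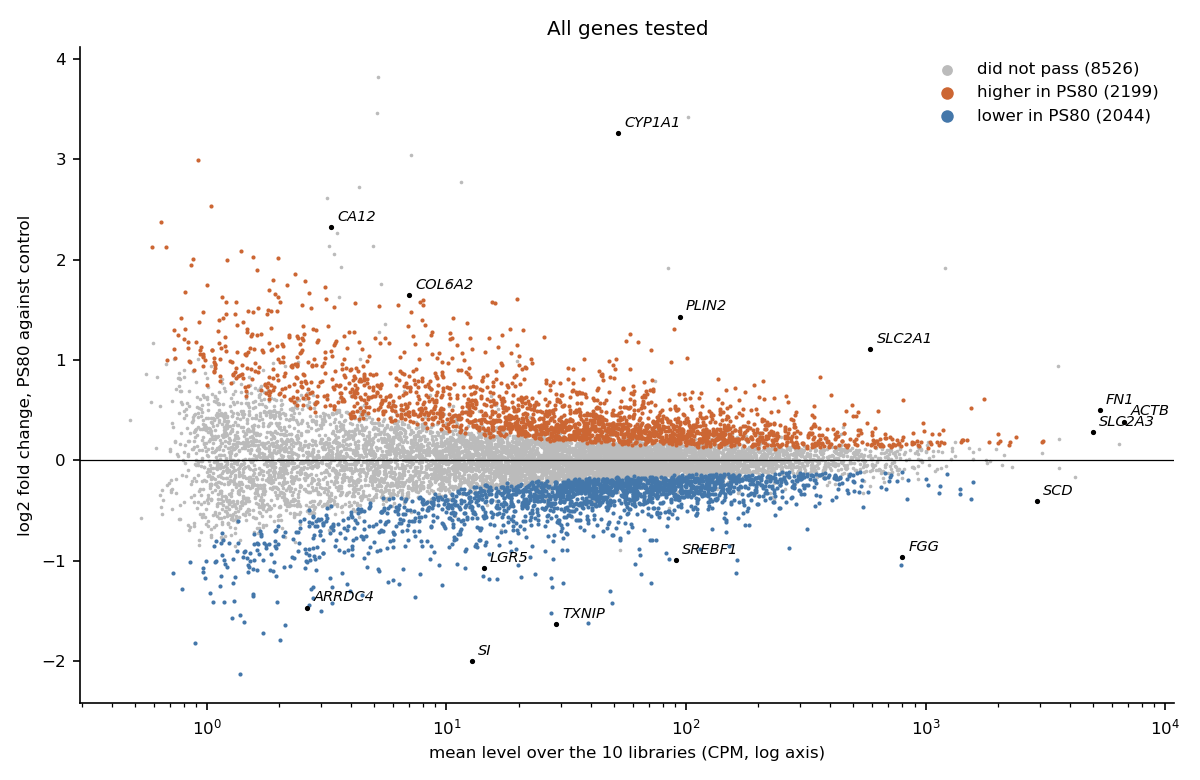
Log2 fold change (PS80 against control) against the mean level over the 10 libraries (CPM, log axis) for all 12769 genes tested, orange for the 2199 that passed as higher, blue for the 2044 that passed as lower and grey for the rest. CYP1A1 lies highest among the labelled genes and SI lowest, while the abundant genes FN1, ACTB, SLC2A3 and SCD changed by about 0.3 to 0.5 on the log2 scale.

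Histones and small RNAs were left out of the ranking by fold change. The histone list reached 3.82 on the log2 scale, and 0 of its members passed as higher. Among the other named genes that passed with at least 5 CPM and no overlap of groups, CYP1A1 had the largest change. This monooxygenase is the classical target of the aryl hydrocarbon receptor, a sensor of planar aromatic compounds, and lies on chromosome 15 from 74719542 to 74725536 (GRCh38). Its level was 11.1, 9.58, 8.12, 10.8 and 9.15 CPM in control replicates 1 to 5 and 121, 95.6, 94.8, 76.02 and 86.8 CPM in PS80 replicates 1 to 5. Every PS80 library was far above every control library, and the log2 fold change was 3.26 ± 0.32 (SE; edgeR adjusted p = 1.11e-05). Of 8 measured members of the aryl hydrocarbon receptor list 4 rose and 1 fell (median 0.24). CYP1B1, a related monooxygenase, rose by 1.06, ABCG2, the drug efflux pump BCRP, by 0.63, and the receptor's partner ARNT fell by 0.25. NQO1, the fourth that rose, had a log2 fold change of 0.14 and no longer passed without any 1 of 8 libraries. TIPARP, a repressor of the receptor that it also induces, did not pass (0.16, adjusted p = 0.133 by edgeR).

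COL6A2, a chain of type VI collagen, had 3.43, 4.53, 2.63, 3.37 and 2.87 CPM in control and 15.7, 13.7, 6.26, 9.09 and 8.21 CPM with PS80 (log2 fold change 1.64 ± 0.24, edgeR adjusted p = 4.18e-05). PTPRS, a receptor tyrosine phosphatase, rose 3.05-fold, HIP1, a clathrin adaptor, 2.98-fold, and CEACAM1, an adhesion molecule of the apical membrane, 2.93-fold. EEF1A2, the elongation factor isoform of muscle and neurons, rose 2.68-fold, B4GALNT4, a glycosyltransferase, 2.98-fold, and PALD1, paladin, 2.79-fold. All 15 genes named as highest had groups that did not overlap, as the naming rule required.

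At the other end, SI, the apical enzyme that splits sucrose and isomaltose, was 4.004-fold lower. Its level was 32.6, 27.3, 10.03, 19.7 and 12.98 CPM in control and 5.77, 6.34, 3.58, 5.34 and 4.04 CPM with PS80. Control replicates 1 and 2 were the highest of the 10 and control replicate 3 the lowest control, still above all PS80 libraries. MYBPH, a myosin-binding protein, was 3.07-fold lower, and NEB, the giant thin-filament protein nebulin, 2.87-fold lower. PLXNC1, a semaphorin receptor, fell from 68.7 ± 4.66 to 28.1 ± 5.33 CPM (mean ± SD, n = 5; edgeR adjusted p = 1.04e-08), the smallest p among genes that fell. TENT5C, a poly(A) polymerase, CAB39L, a partner of the kinase LKB1, and APELA, a peptide ligand of the apelin receptor, fell by 1.22, 1.22 and 1.18 on the log2 scale.

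The largest gains in absolute level were in cytoskeleton, matrix and glucose transport. ACTB, beta-actin, went from 5870.0 ± 740.0 to 7667 ± 345 CPM, FN1, fibronectin, from 4419 ± 259 to 6241 ± 837 CPM, and SLC2A3, the glucose transporter GLUT3, from 4513 ± 241 to 5497 ± 390.2 CPM (n = 5 in each group). The largest losses were SCD, stearoyl-CoA desaturase, from 3325 ± 448 to 2508 ± 292 CPM, OAT, ornithine aminotransferase, from 1062 ± 75.3 to 514 ± 60.6 CPM, and FGG, the fibrinogen gamma chain, from 1059.8 ± 388 to 543 ± 108 CPM. In all 6 the groups did not overlap.

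PLIN2 and CPT1A rose and SREBF1 fell. PLIN2, the perilipin that coats lipid droplets and a PPAR target, lies on chromosome 9 from 19108375 to 19149290. It had 58.1, 49.4, 53.004, 49.1 and 46.3 CPM in control and 101, 115, 153, 137 and 179 CPM with PS80, so that the lowest PS80 library was well above the highest control library (log2 fold change 1.43 ± 0.15, edgeR adjusted p = 9.93e-06). PS80 replicates 1 and 2 held the lower PLIN2 values and replicates 3 to 5 the higher ones, and the log2 fold change was 1.02 in the former alone and 1.69 in the latter.

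CPT1A, which makes the acylcarnitine that enters mitochondria, had 40.5, 37.5, 31.8, 30.95 and 31.7 CPM in control and 75.7, 87.4, 79.9, 78.2 and 88.9 CPM with PS80. These values rose 2.3998-fold with little spread (edgeR adjusted p = 2.22e-10). MGLL, monoacylglycerol lipase, rose from 6.82 ± 0.505 to 17.6 ± 3.05 CPM, and SLC27A1, the fatty acid transport protein FATP1, from 3.24 ± 0.883 to 9.32 ± 3.05 CPM. CREB3L3, a membrane-bound factor of liver and gut that induces genes of triglyceride metabolism, rose by 1.22 on the log2 scale from 3.15 ± 1.196 CPM.

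SREBF1, the gene of SREBP-1, had 114, 121, 121, 117 and 130.5 CPM in control and 46.2, 66.2, 57.5, 69.2 and 63.2 CPM with PS80. Both groups were tight and far apart, with a 1.99-fold lower level (edgeR adjusted p = 1.04e-08). It lies on chromosome 17 from 17810399 to 17837002. Of its classical target enzymes SCD fell by 0.41 on the log2 scale and FASN, fatty acid synthase, did not pass (0.11, adjusted p = 0.161 by edgeR). In the fatty acid synthesis and desaturation list, which holds both enzymes, 3 genes rose and 5 fell, as given below. ABCA1, the cholesterol efflux pump, fell by 0.80, and MYLIP, the ubiquitin ligase that removes the LDL receptor, by 0.48. Both are targets of the liver X receptors, as SREBF1 is, and a role of these receptors was not tested. Of 13 measured genes of sterol uptake, storage and efflux 1 rose and 3 fell (median -0.040), or 2 and 3 with the replicate block. With 1 library left out 1 to 2 rose and 2 to 3 fell. SMPD1, the lysosomal sphingomyelinase, fell from 84.8 ± 7.25 to 44.2 ± 4.86 CPM.

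Whole lists of lipid genes were mixed. Of 17 measured genes of droplets and triglyceride turnover 5 rose and 2 fell (median 0.045), and without PS80 replicate 2 5 rose and 5 fell. With the replicate number as a block in the fit (the replicate block) 6 rose and 5 fell. Besides PLIN2 and MGLL, the acyltransferases GPAT3 and AGPAT2 rose by 0.60 and 0.39, whereas G0S2, an inhibitor of triglyceride lipase, fell by 0.55. Of 21 fatty acid oxidation and PPAR genes 5 rose and 3 fell (median 0.068), beside 17.2% higher and 16% lower over all genes. ACADVL, the very long chain acyl-CoA dehydrogenase, rose by 0.55, the receptor PPARG by 0.41 and the carnitine carrier SLC25A20 by 0.28, while the thiolase ACAA2, the peroxisomal enzyme EHHADH and the acyl-CoA synthetase ACSL1 fell by 0.41, 0.36 and 0.35.

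Of 15 genes of fatty acid synthesis and desaturation 3 rose and 5 fell (median 0.075), or 5 and 6 with the replicate block, among them the elongases ELOVL6 at 0.45 and ELOVL7 at -0.35, and the desaturase FADS2 at -0.32. Of 22 genes of cholesterol synthesis 1 rose and 5 fell (median -0.043), and with the replicate block 3 rose and 6 fell. That 1, SREBF2, no longer passed without any 1 of 7 libraries, and 3 to 6 genes fell with 1 library left out, the fewest without control replicate 4. Of 10 genes of lipoprotein assembly 0 rose and 2 fell, APOH by 0.51 and APOA4 by 0.51, and APOA4, with 43.2% of its exonic bases shared, no longer passed without any 1 of 5 libraries (adjusted p up to 0.0994 by edgeR). APOB had a log2 fold change of 0.022.

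**Figure D2:**
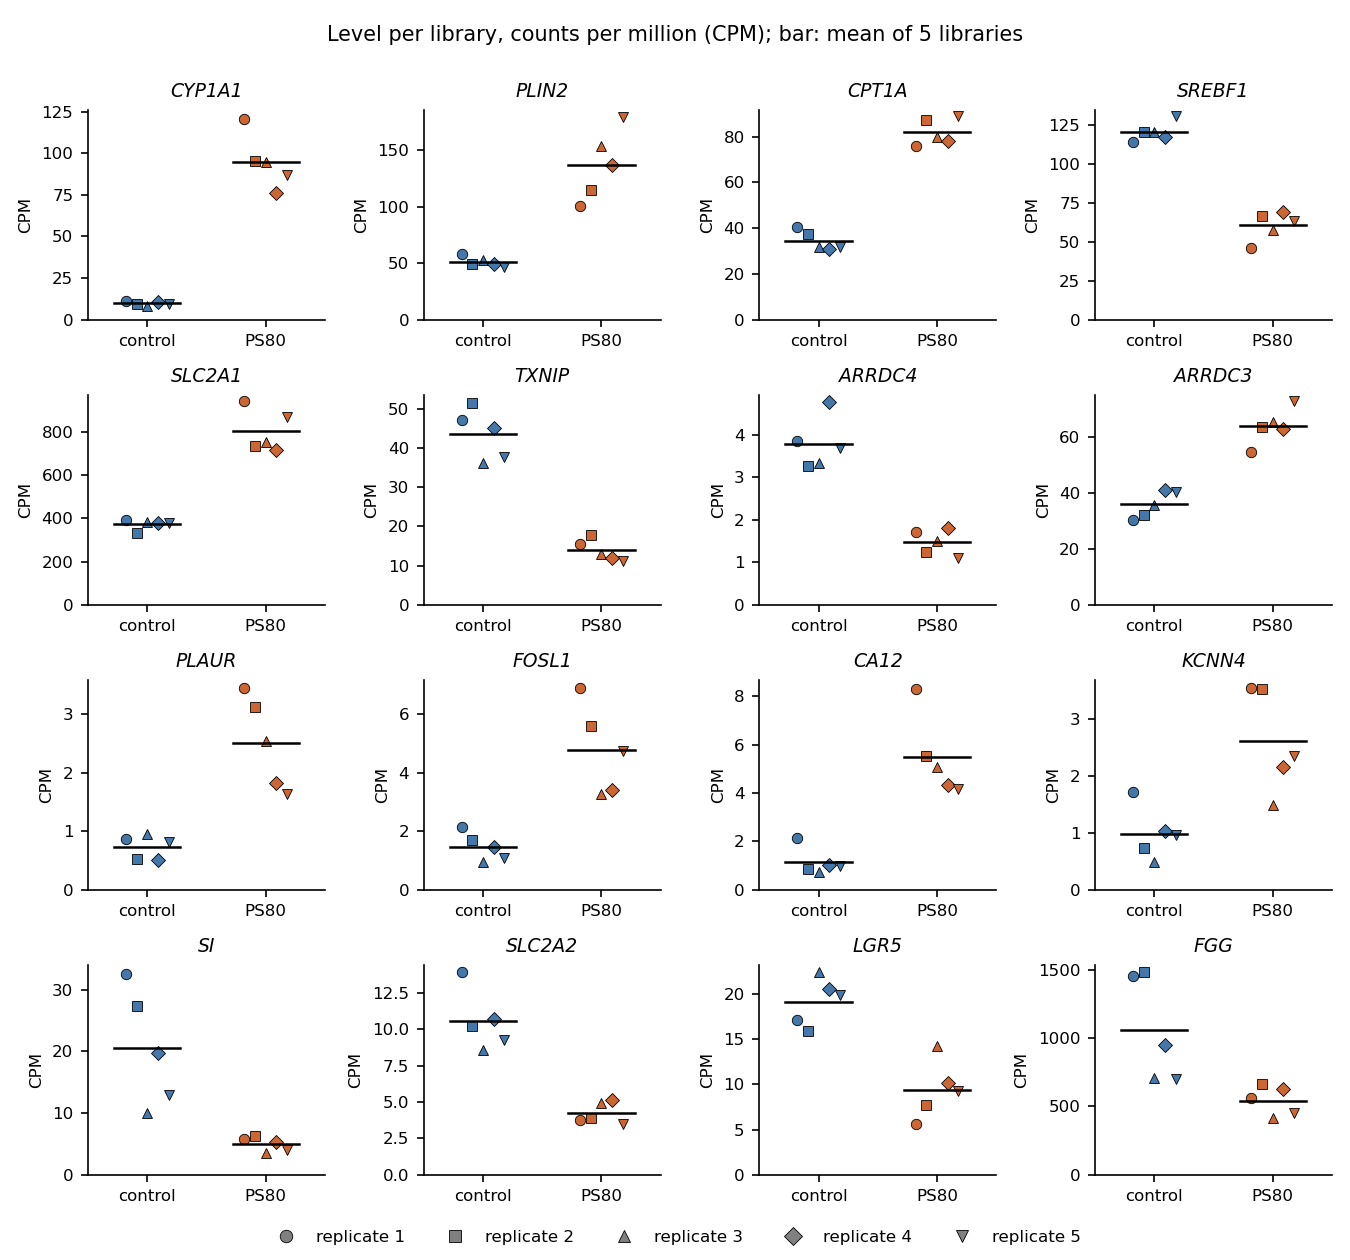
Level in each library (CPM) of 16 genes, blue for control and orange for PS80, with marker shapes for replicate numbers and a bar for the mean of 5 libraries. In all 16 panels except that of KCNN4, where the lowest PS80 library lies under the highest control library, the 5 PS80 values do not overlap the 5 control values.

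Glucose transporters and alpha-arrestins moved apart by member. SLC2A1, GLUT1, the transporter of basal glucose uptake, had 392, 335, 385, 378 and 377 CPM in control and 943, 738, 754, 716 and 869 CPM with PS80, and all 5 PS80 libraries lay above control. SLC2A3, GLUT3, was the more abundant mRNA of the pair per length, with 743 and 905 RPKM (reads per kilobase of exon, scaled as CPM) in control and with PS80 against 56.4 and 122 for SLC2A1. It rose by 0.28 on the log2 scale without overlap. SLC2A2, GLUT2, a transporter of differentiated enterocytes and hepatocytes, had 13.9, 10.2, 8.595, 10.7 and 9.29 CPM in control and 3.75, 3.87, 4.92, 5.11 and 3.46 CPM with PS80, again without overlap, and was 2.56-fold lower. SLC5A9, a sodium-coupled sugar transporter, fell by 0.90, and SLC2A8, GLUT8, rose by 0.45.

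TXNIP, the alpha-arrestin that limits glucose uptake and binds thioredoxin, had 47.2, 51.7, 36.3, 45.3 and 37.7 CPM in control and 15.5, 17.9, 12.97, 11.8 and 11.2 CPM with PS80. Its close relative ARRDC4, which like TXNIP is induced when glucose metabolites accumulate, had 3.86, 3.26, 3.34, 4.77 and 3.69 CPM in control and 1.72, 1.23, 1.49, 1.82 and 1.11 CPM with PS80. Both were lower in every PS80 library than in any control library (3.11-fold and 2.77-fold). ARRDC3, an alpha-arrestin that acts on beta-adrenergic receptors, went the other way, from 30.2, 32.2, 35.8, 40.998 and 40.3 CPM in control to 54.8, 63.6, 65.4, 62.8 and 73.02 CPM with PS80. Of 14 measured members of this list 5 rose and 4 fell.

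The promoters of the 2 arrestins that fell are shown for the known carbohydrate response element of TXNIP, a pair of CACGAG motifs spaced by 5 bases, and for the E-box CACGTG in ARRDC4. Each is the 250 bases before the start in RefSeq (GRCh38.p14), written 5′ to 3′ along the gene, with the matches in capitals. TXNIP is chr1:145996580-145996829, minus strand, and ARRDC4 is chr15:97960453-97960702, plus strand.
TXNIP: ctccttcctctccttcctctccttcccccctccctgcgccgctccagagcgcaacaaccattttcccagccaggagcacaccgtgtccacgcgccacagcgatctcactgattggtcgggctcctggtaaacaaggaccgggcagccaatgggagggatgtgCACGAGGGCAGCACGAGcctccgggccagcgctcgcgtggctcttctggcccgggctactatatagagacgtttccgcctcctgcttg
ARRDC4: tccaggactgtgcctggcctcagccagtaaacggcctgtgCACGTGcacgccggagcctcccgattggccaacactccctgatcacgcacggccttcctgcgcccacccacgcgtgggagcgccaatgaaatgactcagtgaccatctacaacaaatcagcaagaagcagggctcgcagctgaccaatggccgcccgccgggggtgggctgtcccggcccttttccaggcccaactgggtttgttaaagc
The paired motif, searched on both strands, occurred in 2 of 35116 windows of this length, a single CACGAG in 5.58% and CACGTG in 6.34%. The CACGAG motifs were added after the TXNIP window was seen, so its match was fixed in advance. The RefSeq table holds 2 starts for TXNIP, and whether both windows with the pair are its own was not checked. The TXNIP window held no CACGTG and the ARRDC4 window no CACGAG. A match is a description of the sequence and was not linked to a factor by any measurement here.

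Of 26 measured genes of glycolysis and pyruvate handling 11 rose and 1 fell (median 0.16), or 13 and 2 with the replicate block. PFKP, a phosphofructokinase, went from 143 ± 11.9 to 240.1 ± 8.63 CPM (edgeR adjusted p = 2.15e-09), and SLC16A3, the lactate exporter MCT4, from 4.08 ± 0.7395 to 11.9 ± 3.18 CPM. HK2, hexokinase 2, rose by 0.43, PFKFB3, which makes the activator of phosphofructokinase, by 0.51, and SLC16A1, the lactate transporter MCT1, by 0.32. PDK2, the 1 that fell (-0.33, 38.6% of exonic bases shared), no longer passed without control replicate 3 or PS80 replicate 5, and 9 to 11 genes rose with 1 library left out. In replicates 1 and 2 alone 5 of these genes rose, and in replicates 3 to 5 alone 12. Of glycogen genes, GYS1, glycogen synthase, rose by 0.42 and GBE1, the branching enzyme, fell by 0.63.

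Of 15 targets of hypoxia-inducible factors outside glycolysis 7 rose and 1 fell, but 4 rose and 0 fell without PS80 replicate 2 and 4 rose and 3 fell without control replicate 5. In the other fits without 1 library 4 to 7 rose and 0 to 2 fell. In replicates 1 and 2 alone the counts were 2 higher and 4 lower, against 7 and 1 in replicates 3 to 5 alone. With the replicate block 7 rose and 2 fell. CA12, a surface carbonic anhydrase, was the member with the largest change, from 2.14, 0.842, 0.716, 1.03 and 0.956 CPM in control to 8.3005, 5.54, 5.07, 4.32 and 4.17 CPM with PS80 (4.996-fold, edgeR adjusted p = 6.46e-07). EGLN3, an oxygen sensor, rose by 0.54, and VEGFA, a growth factor for vessels, had 0.26 and no longer passed without any 1 of 6 libraries. NDRG1, another classical target, did not pass (-0.47, adjusted p = 0.108 by edgeR).

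Of 21 measured immediate early factors 11 rose and 1 fell (median 0.50), and of 16 ERK feedback and ETS target genes 11 rose and 1 fell (median 0.57), against 17.2% higher over all genes. The first count was 10 to 14 with 1 library left out (10 higher and 2 lower without control replicate 4) and the second 11 each time. With the replicate block 14 and 11 rose. FOSL1, an AP-1 subunit, had 2.14, 1.68, 0.955, 1.47 and 1.09 CPM in control and 6.88, 5.59, 3.28, 3.41 and 4.75 CPM with PS80. All PS80 libraries were above control although the level was low. MYC rose from 51.6 ± 11.2 to 127 ± 21.3 CPM, KLF10 by 0.66 and KLF6 by 0.57, while FOS (0.65) and EGR1 (0.79) did not pass at adjusted p = 0.0909 and 0.143 by edgeR. Both passed with the replicate block, at 0.67 and 0.85 (edgeR adjusted p = 0.00383 and 0.0402). FOSL2, the 1 that fell (-0.17), no longer passed without control replicate 2, PS80 replicate 3 or PS80 replicate 5.

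ETV4 and ETV5, ETS factors induced by ERK, rose by 1.19 and 1.22, and ETV4 went from 37.1, 32.6, 39.4, 31.7 and 32.7 CPM in control to 105, 80.5, 63.3, 68.1 and 73.3 CPM with PS80. DUSP6, the phosphatase that switches ERK off, rose by 0.93, with 28.6% of its exonic bases shared with another gene, and SPRY4, a Sprouty inhibitor, by 0.70. CCND1, cyclin D1, rose from 279.7 ± 7.16 to 406 ± 21.9 CPM. EPHA2, an ephrin receptor, rose by 0.61, and its relative EPHA4 fell by 0.67. Of 9 measured genes of the EGF receptor family and its ligands 3 rose, 0 fell and 6 did not pass (median 0.14). With the replicate block 3 rose and 1 fell, and 33.2% of all genes passed in the main fit. The 3 were AREG and EREG, ligands of EGFR, which rose by 0.73 and 0.92, and EGFR itself, by 0.26. The AREG values were 133, 110.1, 124, 116 and 120.2 CPM in control and 213, 194, 204, 191 and 193 CPM with PS80, tight in both groups.

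PLAUR, the urokinase receptor, rose from 0.858, 0.526, 0.955, 0.513 and 0.8198 CPM in control to 3.44, 3.12, 2.53, 1.82 and 1.64 CPM with PS80. PS80 replicates 1 and 2 were the highest, and the log2 fold change was 2.32 in replicates 1 and 2 and 1.44 in replicates 3 to 5. Its list of plasminogen activation and metalloproteinase genes had 5 of 10 higher and 1 lower. MMP15, a membrane metalloproteinase, rose by 0.69, the inhibitors TIMP2 and TIMP3 by 0.32 and 0.36, and SERPINB1, an elastase inhibitor, fell by 0.40.

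Of 16 measured TGF-beta and Notch genes 10 rose and 2 fell (median 0.35). ID1, an inhibitor of helix-loop-helix factors, had 30.01, 30.4, 39.2, 35.4 and 34.3 CPM in control and 79.7, 63.8, 64.5, 54.9 and 62.4 CPM with PS80, without overlap. The ligand TGFB1 rose by 0.73, whereas TGFB2 fell by 1.23, with 34.2% of its exonic bases shared with another gene. JAG2, a Notch ligand, rose by 0.95 and the receptor NOTCH2 by 0.45, while HES1, a Notch target, fell by 0.21. Among Wnt target and feedback genes 2 of 14 rose and 5 fell (median -0.29), and with the replicate block 2 rose and 9 fell. LGR5, the R-spondin receptor that marks intestinal stem cells, had 17.2, 15.9, 22.4, 20.5 and 19.9 CPM in control and 5.67, 7.72, 14.3, 10.1 and 9.23 CPM with PS80, and was 2.101-fold lower. ZNRF3, which removes Wnt receptors, and NKD1, an intracellular brake, fell by 0.31 and 0.46, and CD44 and LEF1 rose by 0.68 and 0.46.

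**Figure D3:**
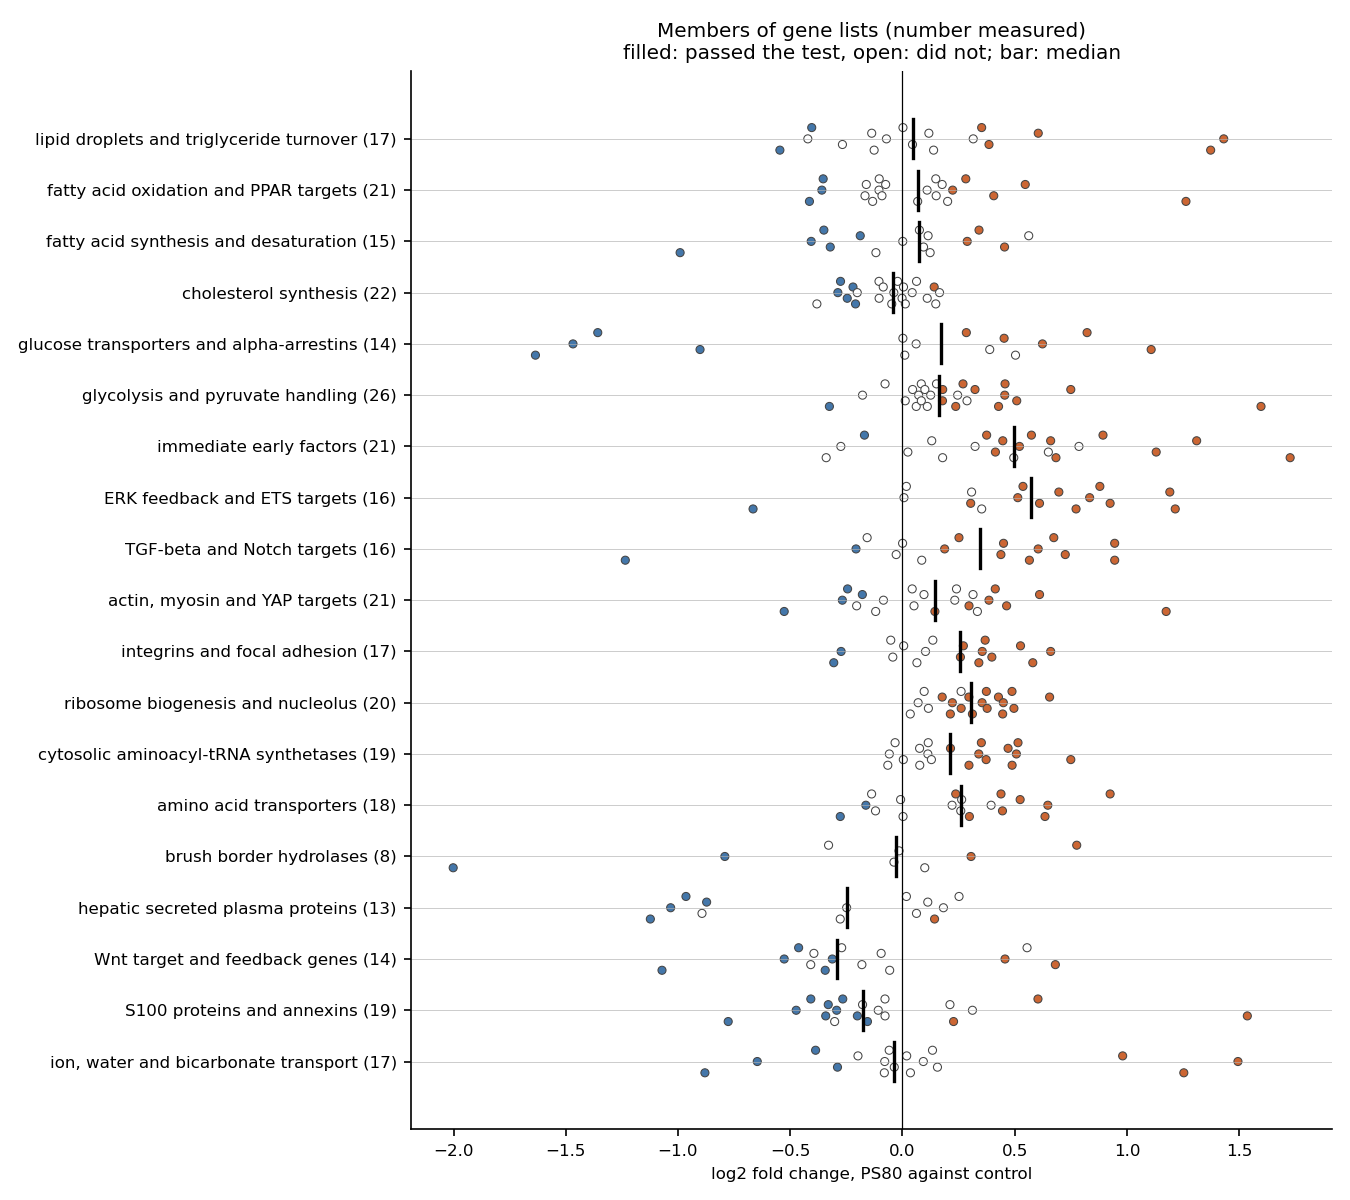
Log2 fold change (PS80 against control) of every measured member of 19 gene lists, filled orange or blue for members that passed as higher or lower and open for those that did not, with a bar at each list's median. The medians of the immediate early (0.50) and ERK feedback (0.57) lists lie farthest to the right, those of the Wnt and hepatic lists are below 0, and the lipid lists spread to both sides of 0.

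ACTG1 and FLNA rose from high levels. ACTG1, gamma-actin, had 1388, 1289, 1451, 1444 and 1395 CPM in control and 2292, 2196, 1999, 2038 and 2111 CPM with PS80, and FLNA, the actin crosslinker filamin A, had 1003, 1154, 1346, 1385 and 1434 CPM in control and 1896, 1852, 1684, 1903 and 1772 CPM with PS80. Neither overlapped. The FLNA difference was 0.80 in replicates 1 and 2 alone and 0.36 in replicates 3 to 5 alone. Both genes are classical targets of the serum response factor SRF, which binds the CArG box, so their promoters are shown with that motif in capitals. ACTG1 is chr17:81512800-81513049 and FLNA is chrX:154374635-154374884, both minus strand, 250 bases before the RefSeq start (GRCh38.p14). For ACTG1 that start is 11048 bases from the end of the gene in the files' annotation.
ACTG1: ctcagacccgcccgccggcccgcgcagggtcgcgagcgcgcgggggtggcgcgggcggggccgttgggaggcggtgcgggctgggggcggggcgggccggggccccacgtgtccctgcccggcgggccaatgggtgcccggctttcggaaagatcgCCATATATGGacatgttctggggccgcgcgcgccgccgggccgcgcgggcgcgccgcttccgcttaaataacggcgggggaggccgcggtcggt
FLNA: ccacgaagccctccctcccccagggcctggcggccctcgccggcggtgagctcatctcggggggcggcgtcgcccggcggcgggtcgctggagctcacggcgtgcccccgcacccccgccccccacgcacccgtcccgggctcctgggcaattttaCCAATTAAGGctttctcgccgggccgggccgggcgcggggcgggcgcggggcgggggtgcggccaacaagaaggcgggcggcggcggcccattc
A CArG box on either strand occurred in 1.16% of all 35116 windows of this length. In both genes it began 94 bases before the start. These genes were picked for display after their values were known, and no binding was measured here.

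Of 21 measured genes of actin, myosin and the YAP pathway 7 rose and 4 fell (median 0.14), and without PS80 replicate 2 6 rose and 2 fell. Without control replicate 4 or 5, 2 fell as well. CNN2, a calponin, rose by 0.41 and MYL12A, a myosin light chain, by 0.46, whereas LIMA1, an actin crosslinker at junctions, fell by 0.53. Of 17 integrin and focal adhesion genes 9 rose and 2 fell (median 0.26). ITGA5, the fibronectin receptor subunit, went from 27.5 ± 2.402 to 42.9 ± 3.43 CPM, VCL, vinculin, rose by 0.27, while ITGA1, a collagen receptor subunit, fell by 0.27. Among laminins and collagens LAMA1 fell from 217 ± 35.9 to 109 ± 16.4 CPM. NES, the intermediate filament nestin, rose 2.14-fold (edgeR adjusted p = 3.26e-10).

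Most S100 and annexin genes that passed fell, 9 of 19, and 3 rose (median -0.18). S100A4, a regulator of myosin and motility, fell by 0.78, S100A16 by 0.47 and S100A10, the partner of annexin A2, by 0.33 from 1557 ± 89.7 CPM. S100P, another calcium-binding S100 protein, rose from 2.36, 3.16, 4.06, 2.71 and 1.37 CPM in control to 12.1, 8.56, 5.07, 6.59 and 6.12 CPM with PS80, where PS80 replicates 1 and 2 were the highest and the groups did not overlap. ANXA6, an annexin of membranes and cholesterol traffic, rose by 0.60, with 1.005 in replicates 1 and 2 alone and 0.31 in replicates 3 to 5 alone.

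Of 13 claudins and junction membrane proteins 2 rose and 1 fell, and of 17 genes of adherens junctions and desmosomes 3 rose and 3 fell, where 33.2% of all genes passed. In the first of these lists 2 fell when control replicate 4 was left out, when PS80 replicate 3 was, or under the replicate block. Of 20 tight junction scaffold and polarity genes 4 rose and 6 fell (median -0.0055), or 7 and 7 with the replicate block, among which CRB3, an apical polarity protein, fell by 0.33 and LLGL2, a basolateral one, rose by 0.32. CLDN2, the claudin that forms cation pores, had 5.79, 5.26, 3.58, 6.31 and 6.01 CPM in control and 9.31, 7.64, 8.05, 11.2 and 10.8 CPM with PS80, without overlap. CLDN4, a sealing claudin, did not pass (0.088, adjusted p = 0.228 by edgeR). Of adhesion proteins, DSG2, a desmosomal cadherin, rose from 108 ± 5.49 to 164 ± 8.25 CPM, PERP, a desmosome component, fell by 0.31, and CDH1, E-cadherin, was at 0.010 and did not pass.

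Of 8 measured brush border hydrolases 2 rose and 2 fell, beside 33.2% of all genes that passed. Beside SI, LCT, lactase, fell by 0.79, whereas DPP4, a dipeptidase, rose from 478 ± 37.9 to 590.4 ± 52.3 CPM and ACE, the angiotensin-converting enzyme, by 0.78 from a low level with 23.9% of its exonic bases shared. Of 18 microvillus genes 4 rose and 3 fell, and without control replicate 1 the counts were 3 and 5, with MYO1A, the brush border myosin, at -0.79, PDZK1, an apical scaffold, at -0.30 and FSCN1, the actin bundler fascin, at 0.62. VIL1, villin, with 44.2% of its exonic bases shared, did not pass (-0.085, adjusted p = 0.257 by edgeR). The intestinal factor CDX2 rose by 0.38 and SOX9, a factor of crypt cells, by 0.52, while FOXA1 and MAF fell by 0.37 and 0.78, and HNF4A was at -0.051 and did not pass.

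All 3 fibrinogen genes fell. FGA, FGB and FGG lie side by side on chromosome 4 and encode the 3 chains of fibrinogen, a plasma protein of hepatocytes that Caco-2 cells also express. FGG had 1454, 1486, 708, 951 and 699 CPM in control and 563, 662, 416, 625 and 448 CPM with PS80, and control replicates 1 and 2 were the highest of the 10. FGA and FGB fell by 0.87 and 1.12, and the FGG difference was -1.26 in replicates 1 and 2 alone and -0.67 in replicates 3 to 5 alone. Of 13 secreted plasma proteins 1 rose (2 with the replicate block) and 4 fell. AFP, the fourth that fell (-1.03), no longer passed without any 1 of 6 libraries (adjusted p up to 0.0924 by edgeR), and RBP4, the 1 that rose (0.14), without any 1 of 7.

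Among 17 ion, water and bicarbonate transport genes 3 rose and 4 fell, or 5 and 4 with the replicate block. SLC4A7, a sodium bicarbonate importer, had 11.1, 7.27, 16.7, 8.43 and 9.29 CPM in control and 35.5, 25.95, 20.6, 17.04 and 18.7 CPM with PS80. PS80 replicates 1 and 2 were the highest, all PS80 values were above control, and the log2 fold change was 1.78 in replicates 1 and 2 and 0.85 in the others. KCNN4, a calcium-gated potassium channel, rose by 1.49 from a low level. AQP3, an aquaporin that also carries glycerol, went from 148 ± 18.6 to 80.1 ± 11.6 CPM, and SLC12A2, the sodium-potassium-chloride cotransporter of secretion, from 223 ± 11.3 to 142 ± 19.6 CPM. CFTR, the chloride channel, did not pass (-0.081, adjusted p = 0.662 by edgeR).

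Of 20 genes of ribosome biogenesis 15 rose and 0 fell (median 0.30), with BOP1 at 0.66, NOLC1 at 0.45 and NOP56 at 0.43. Of 19 cytosolic aminoacyl-tRNA synthetases 10 rose and 0 fell (median 0.21), IARS1 and SARS1 each by 0.51. Of 41 ribosomal proteins 21 rose and 0 fell, but 11 rose without control replicate 1 or PS80 replicate 1 and 2 in replicates 1 and 2 alone, and their near-identical copies make the counts uncertain. Amino acid transporters had 8 of 18 higher and 2 lower. SLC1A5, a glutamine transporter, went from 313 ± 16.4 to 490.4 ± 24.2 CPM (edgeR adjusted p = 2.15e-09), with 23.8% of its exonic bases shared, and SLC7A11, the cystine importer, from 21.9, 15.6, 27.7, 23.8 and 22.8 CPM in control to 52.6, 39.01, 40.8, 35.3 and 41.5 CPM with PS80. The 2 that fell, SLC38A2 (-0.16) and SLC7A6 (-0.28, 55.6% of exonic bases shared), no longer passed in 6 and in 4 of the 10 fits that leave out 1 library.

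The integrated stress response list had 9 of 19 higher and 2 lower (median 0.33), among them STC2, a secreted glycoprotein, at 0.57, SHMT2, a mitochondrial folate enzyme, at 0.41 and ATF5, a factor translated under stress with 22.1% of its exonic bases shared, at -0.74. DDIT3, the factor CHOP, with 39.6% of its exonic bases shared, did not pass (0.34, adjusted p = 0.14002 by edgeR). Endoplasmic reticulum chaperones had 4 higher and 4 lower of 21 (median -0.055), with 2 lower without control replicate 4 or PS80 replicate 2. MANF, a secreted factor of this stress, rose by 0.29 and DNAJC3, a co-chaperone, fell by 0.24. Of 18 cytosolic heat shock genes 10 rose and 0 fell (1 with the replicate block or without control replicate 2), and of 19 NRF2 targets 11 rose and 3 fell, with 7 higher without control replicate 1. MT2A, a metallothionein that binds zinc, had 0, 0.421, 0.478, 0.4401 and 0.8198 CPM in control and 1.42, 1.11, 1.49, 1.704 and 2.17 CPM with PS80, without overlap at a very low level.

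Of 25 DNA replication genes 9 rose and 3 fell (median 0.12), MCM6, a helicase subunit, by 0.34 and the factor E2F1 by 0.44. RRM1 and RRM2, subunits of ribonucleotide reductase, were at -0.15 and -0.15, and neither passed without control replicate 5 or without PS80 replicate 2. RRM2 also missed the threshold without any 1 of 4 other libraries, and without PS80 replicate 2 the list had 11 higher and 1 lower, and 9 and 1 without control replicate 5. Of 21 mitotic genes 3 rose and 6 fell (median -0.072), with CENPE, a kinetochore motor, at -0.72, KIF20A at -0.36 and AURKB, the kinase of the spindle midzone, at 0.36.

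NOS2, the inducible nitric oxide synthase, had 31.5, 30.9, 34.9, 38.6 and 33.3 CPM in control and 71.2, 73.5, 68.9, 57.5 and 71.3 CPM with PS80, and all PS80 libraries were above control. Of 14 NF-kB and inflammatory genes 7 rose and 1 fell (median 0.19), and the inhibitor NFKBIA did not pass (-0.058, adjusted p = 0.686 by edgeR). Of 13 interferon-stimulated genes 1 rose (2 with the replicate block or without control replicate 2 or 5) and 3 fell, where IFIT2 rose by 1.08 from a low level and PARP9 fell by 0.59. PMAIP1, the death factor NOXA, rose by 1.32 from 1.04 ± 0.1697 CPM, CASP9, an initiator caspase, fell by 0.50, and the p53 targets SESN1 and TP53I3 fell by 0.37 and 0.60, whereas CDKN1A did not pass (0.23, adjusted p = 0.511 by edgeR).

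PS80 replicate 2 was rich in RNAs without poly(A), and leaving it out moved the histone list. It was left out for that richness, so a downward shift of this list was fixed in advance. Of 17 measured genes of the histone list 0 rose and 1 fell with all libraries (median 1.76), 2 rose with the replicate block, and 0 rose and 7 fell without PS80 replicate 2 (median -0.39). H2AC6 had 14.1, 15.5, 14.6, 12.8 and 12.02 CPM in control and 4.15, 25.3, 4.62, 5.79 and 4.44 CPM with PS80, so that replicate 2 was the highest of the 10 and the other 4 PS80 libraries were below all control libraries. Its log2 fold change was -0.47 (adjusted p = 0.498 by edgeR) and -1.55 without that library (adjusted p = 2.08e-07). Histone genes have near-identical copies, which makes these counts uncertain.

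**Figure D4:**
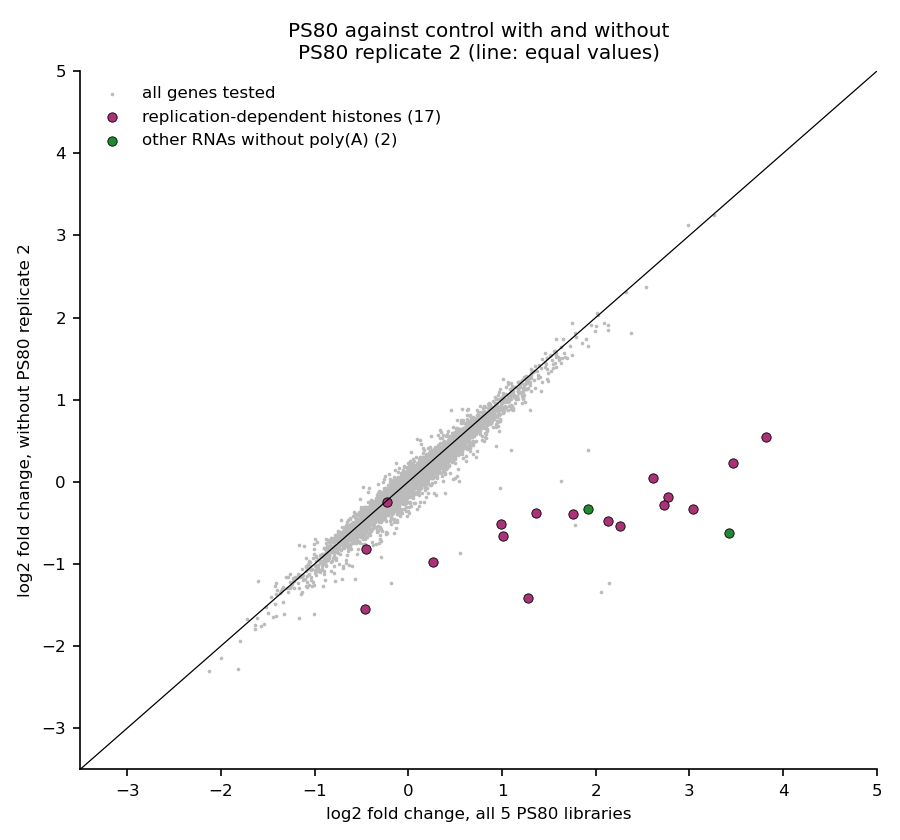
Log2 fold change (PS80 against control) without PS80 replicate 2 against the value with all 5 PS80 libraries, grey for all genes tested, purple for 17 genes of the histone list and green for 2 other RNAs without poly(A). Most genes lie along the line of equal values, while all 17 histone genes lie below it.

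PS20 and PS80, which differ in their fatty acid, were compared directly at the same dose and time in 1 pair of groups, with p adjusted over all genes. Of 12769 genes 35.2% passed, 18% as higher with PS80 and 17.2% as lower. On the log2 scale, PS80 minus PS20, SREBF1 was at -0.46 ± 0.082 (SE; edgeR adjusted p = 1.22e-04), lower with PS80, and SCD at -0.87 ± 0.095 (edgeR adjusted p = 2.61e-06). Against control, whose libraries both comparisons share, 48.2% of genes passed with PS20 and 33.2% with PS80, and SCD was at -0.41 ± 0.094 with PS80 and 0.47 ± 0.094 with PS20. PLIN2 was higher with PS80 than with PS20 (difference 0.63 ± 0.14, edgeR adjusted p = 0.00345), and ACADVL lower (-0.46 ± 0.069, edgeR adjusted p = 1.33e-05). Of 22 cholesterol synthesis genes 20 were lower and 1 higher with PS80 than with PS20. Against control 19 of these 22 rose and 2 fell with PS20, whereas 1 rose and 5 fell with PS80.

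ARRDC4 and ARRDC3 were both lower with PS80 than with PS20, with differences of -1.58 ± 0.20 and -1.003 ± 0.078 (edgeR adjusted p = 1.17e-06 and 1.02e-09), and so was TXNIP, with -0.92 ± 0.18 (edgeR adjusted p = 0.00129). The ARRDC4 level was 4.098 ± 0.6999 CPM with PS20, 1.47 ± 0.304 CPM with PS80 and 3.78 ± 0.601 CPM in control. SLC2A1 and SLC2A3 were higher with PS80 by 0.35 ± 0.077 and 0.83 ± 0.065. Of 21 actin and myosin genes 16 were higher and 0 lower with PS80 than with PS20, of 25 DNA replication genes 23 and 0, and of 19 S100 and annexin genes 12 and 1. S100P was the 1 lower member of that list, with a difference of -1.57 ± 0.26. With PS20 against control, the actin, DNA replication and S100 lists had 2, 1 and 3 genes higher and 8, 15 and 13 lower. Of 19 integrated stress response genes 15 were lower and 0 higher with PS80 than with PS20, with a difference of -1.08 ± 0.12 for ALDH1L2, and of 21 endoplasmic reticulum chaperones 15 were lower and 0 higher. With PS20 against control, 15 of the former and 14 of the latter rose, and 0 fell in either list.

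For other genes a difference between the 2 polysorbates was not detected. The difference of CYP1A1 was -0.024 with a 95% interval of -0.56 to 0.52, that of CPT1A -0.11 (-0.27 to 0.044), that of MGLL 0.10 (-0.19 to 0.39), that of AREG -0.054 (-0.16 to 0.051) and that of MYC 0.13 (-0.14 to 0.41). These intervals bound the difference on the log2 scale and do not show that the compounds act alike.

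**Figure D5:**
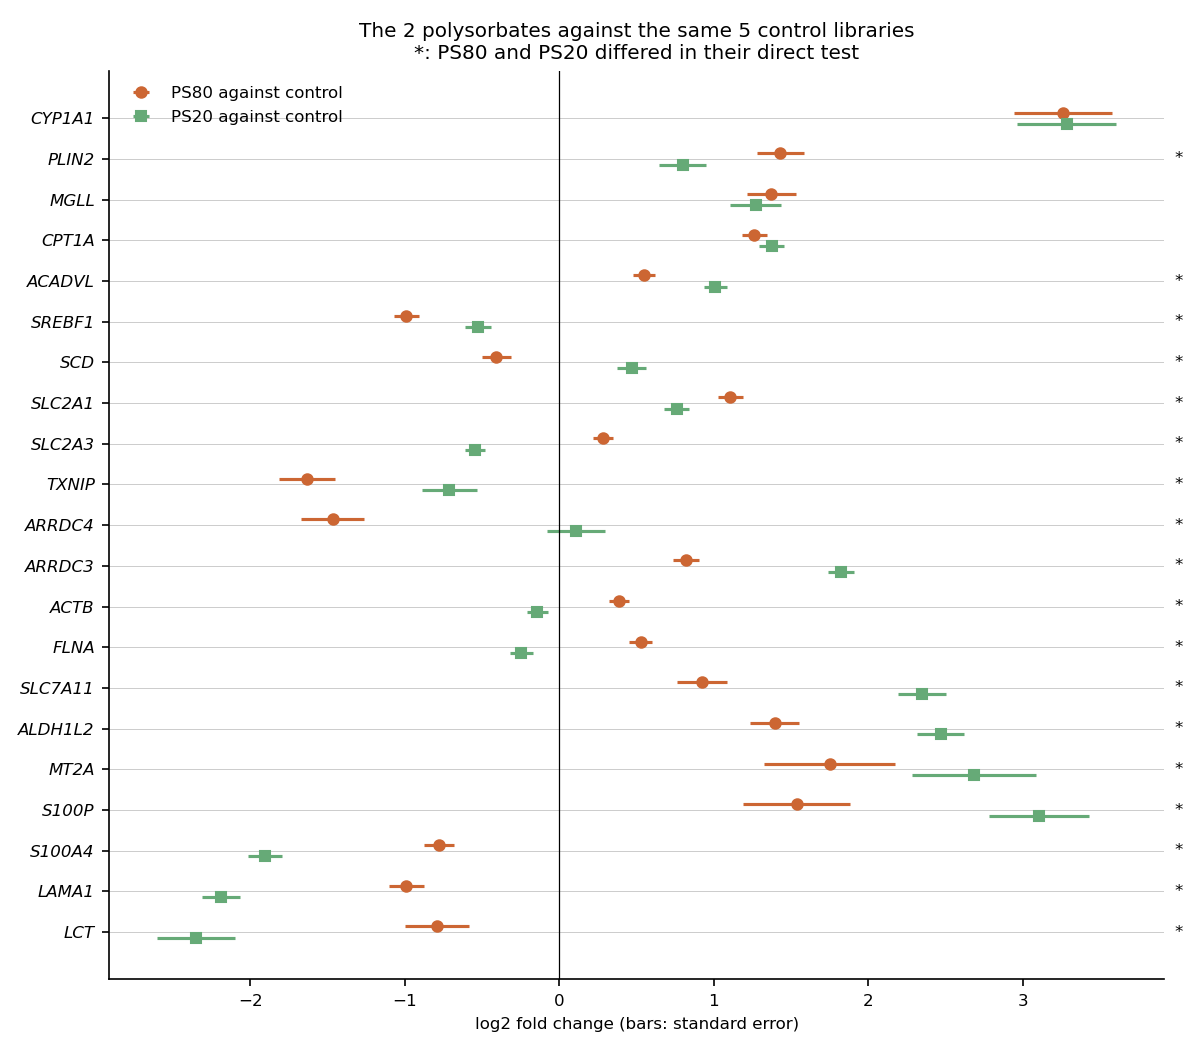
Log2 fold change with its standard error of 21 genes for PS80 (orange circles) and PS20 (green squares), each against the same 5 control libraries, with a star where PS80 and PS20 differed in their direct test. CYP1A1, MGLL and CPT1A carry no star, SCD, SLC2A3, ACTB, FLNA and ARRDC4 lie on opposite sides of 0, and SLC7A11, ALDH1L2, S100A4 and LAMA1 are farther from 0 with PS20.

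The 177 genes named here that passed did so in a fit of these same libraries. Agreement in parts of these libraries was thus largely set in advance. All 177 had the same sign in replicates 1 and 2 alone and in replicates 3 to 5 alone. They also had it with PS80 replicate 2 as the only PS80 library, the one counted like the controls and rich in RNAs without poly(A). In that last fit, which assumes that the lone library varies like the others, 122 of them passed.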

How the data were processed

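Polyadenylated RNA of Caco-2 cells was sequenced in 15 libraries, grouped by their titles. The authors deposited raw counts per gene for each library, made with featureCounts on GENCODE release 42 with a minimum mapping quality of 10 and no strand or pair setting, per the file headers. The submitters' processing notes name cutadapt, STAR 2.7.9a and GRCh38, with no role or order. Without strand, reads of overlapping genes cannot be told apart, so the share of exonic bases shared with another gene is given where it is 20% or more. The deposited counts were not normalised, and CPM and RPKM were computed from them here. Library totals ran from 4183096 to 42271053 counts.

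Genes with low counts were removed with filterByExpr (minimum count 10, minimum total 15). All 15 libraries were fitted with edgeR 4.0.16 (R 4.3.3) with TMM factors (0.978 to 1.02) and the robust quasi-likelihood test, and p was adjusted by Benjamini-Hochberg at 0.05 over all genes. The method was tested on simulated counts. SE is the log2 fold change divided by the square root of F. DESeq2 1.42.0, other scalings and filters, single sets of replicates and fits without 1 library were alternatives. Numbered replicates of PS80 and control deviated together (r = 0.139, 0.304, 0.184, 0.102 and 0.124 across genes, which are not independent replicates), although numbers 1 and 5 correlated more with another number (0.171 and 0.215). Any pairing by number was thus read from the data and is not stated in the labels. The main fit left it out, and the replicate block took it in as an alternative.

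Members and gene lists were chosen with earlier results of these data known. Among genes that passed, the 15 highest and lowest fold changes with at least 5 CPM and no overlap of groups were named. The 10 largest CPM differences and the 10 smallest p in each direction, also among genes that passed, were added. Histones, small and antisense RNAs and pseudogenes were left out of these rankings. Of each list, its first 3 members and the 4 that passed with the smallest p in each direction were named. Not every such gene is described, some are not reported here, and genes with a copy on a scaffold were only counted. Promoters were read from a RefSeq table (GRCh38.p14), and the CACGAG motifs were added after seeing them.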

Additional observations from a re-analysis of the deposited data

Results flagged for a closer look

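In 28 of 384 groups of 5 libraries, 1 per gene named and group, 1 library lay far from the other 4, with a gap to the next that exceeds Dixon's critical value, and chance gives this in about 1 in 20 groups. The PS80 replicate 1 library stood high in CEACAM1 at 17.1, DPP4 at 682, PALD1 at 11.8 and TFRC at 1196 CPM. The PS80 replicate 1 library stood low in KIF20A at 164 CPM. The PS80 replicate 2 library stood high in AGPAT2 at 122, APOH at 79.3, H2AC6 at 25.3 and LAMB3 at 597 CPM. The PS80 replicate 2 library stood low in RRM1 at 237 CPM. The PS80 replicate 3 library stood low in APOA4 at 2.68 CPM. The PS80 replicate 4 library stood high in ELOVL7 at 64.99 and LCT at 7.499 CPM. The PS80 replicate 5 library stood low in PDK2 at 8.34 CPM. The control replicate 1 library stood high in CA12 at 2.14, CEACAM1 at 7.72, DUSP6 at 16.1, ELOVL7 at 107, SLC16A3 at 5.36 and TFRC at 965 CPM. The control replicate 1 library stood low in CRB3 at 28.9, S100A4 at 30.01, SLC1A5 at 284 and SMPD1 at 72.03 CPM. The control replicate 2 library stood high in AQP3 at 181 and HIP1 at 11.1 CPM. The control replicate 2 library stood low in RRM2 at 311 and SLC2A1 at 335 CPM.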

How the results depend on the processing

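With 1 library left out, 3557 to 4126 genes passed (1851 to 2150 higher, 1706 to 2034 lower), 163 to 227 rose and 79 to 123 fell by over 2-fold, and the fewest passed without control replicate 4. With the replicate block, the fit that uses the replicate numbers, 5179 passed, and DESeq2 called 4243. PS80 against PS20 gave 5451 with the replicate block and 4262 without PS80 replicate 2. In replicates 1 and 2 alone 2213 genes passed (1191 higher, 1022 lower). With PS80 replicate 2 as the only PS80 library 2797 passed (1251 lower), and 376 rose by over 2-fold, against 126 in replicates 3 to 5 alone. With no filter 295 rose and 193 fell by over 2-fold. Fewer libraries or other genes enter these fits. Of 177 genes named here that passed, 164 passed in every fit without 1 library, 177 with the block and 175 with DESeq2, and none of them changed sign in any alternative run. All 177 passed in the main fit of the same libraries, so this agreement was largely set in advance. Signs turned only in genes that did not pass, and the cause was not tested. APOB had -0.0034 with library totals only, -0.33 with replicates 1 and 2, -0.23 with PS80 replicate 2 as the only PS80 library, -0.086 to 0.080 without 1 library. CDH1 had -0.017 with library totals only, -0.0085 with replicates 1 and 2, -0.0018 to 0.022 without 1 library. CFTR had 0.017 with replicates 3 to 5, -0.15 to 0.0053 without 1 library. H2AC6 had 0.094 with replicates 1 and 2, 0.88 with PS80 replicate 2 as the only PS80 library. HNF4A had 0.072 with PS80 replicate 2 as the only PS80 library. VIL1 had 0.067 with PS80 replicate 2 as the only PS80 library. Low counts limit genes near 1 CPM, such as PLAUR and MT2A.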

Other observations

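Of 15 drug transporter and conjugation genes 6 rose and 3 fell (median 0.053), with 1 lower without any 1 of control replicates 2 to 5 and PS80 replicates 3 and 4. SLC15A1, the peptide transporter of enterocytes, rose by 0.49, SLCO4A1, an organic anion carrier, by 0.69, and SULT2A1, a sulfotransferase of steroids and bile acids, fell by 0.90. Of 11 iron genes 3 rose and 1 fell (2 with the replicate block), or 1 and 1 without control replicate 1. TFRC, the transferrin receptor, rose by 0.29 and SLC11A2, the iron importer DMT1, fell by 0.27. Of 7 metallothionein and zinc transporter genes 4 rose and 1 fell (3 with the replicate block, 0 without any 1 of 6 libraries), with MT1F at 0.81 and SLC39A10, a zinc importer, at 0.54.

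Of 20 laminin, collagen and basement membrane genes 7 rose and 5 fell (median 0.030), where COL4A1, a chain of type IV collagen, fell by 0.67 and LAMB3 by 0.47. Of 20 autophagy and lysosome genes 2 rose (4 with the replicate block) and 5 fell, and TFEB, the factor that drives lysosomal genes, rose by 0.65. Of 23 death receptor, caspase and BCL2 family genes 4 rose and 5 fell (3 and 3 without control replicate 4 or PS80 replicate 5), and of 13 p53 targets 1 rose and 2 fell. Nuclear-encoded respiratory chain genes had 2 higher and 1 lower of 26 (median 0.0061), with 0 to 3 higher and 0 or 1 lower when 1 library was left out and the fewest higher without PS80 replicate 1, and mitochondrially encoded mRNAs 0 higher and 2 lower of 13 (1 and 2 without PS80 replicate 4).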
